A study of Mus musculus with 48 samples.

Results

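The comparison described here is anti-PD-1 against IgG 1 day after treatment in tumors of wild-type mice. Its members were taken by title, as the 3 libraries of experiment EXP2128 titled aPD1_D1 and the 3 titled IgG_D1. They are 6 of the 48 libraries of the series, and the comparison was made across all genes. B16-D5 cells, a subclone of the mouse melanoma line B16 and so a single cell line, were injected under the flank skin of C57BL/6J mice that arrived at 4 weeks of age and were housed for 2 weeks. Treatment began 8 days later, on day 0, by injection of 250 µg of anti-PD-1 (catalog number BE0146) or of IgG (BE0089) in 200 µL of PBS. A further injection followed on day 3, so the day 1 tumors had received only the first. All 9 tumors of day 1, the 3 untreated ones included, carried the same implant, and no gene was altered in the host or, by the labels, in the line. Total RNA came from whole fresh tumor, so each library mixes tumor cells, immune cells and stroma, and each replicate was a separate tumor. A pair of annotation fields went against the titles. The treatment field matched the title in 4 of the 6 libraries, since anti-PD-1 replicates 4 and 5 were entered there as IgG, and the time field matched in 0 of 6, since all were entered as the earlier 6 hour point. The titles were followed throughout.

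PD-1 is an inhibitory receptor of activated T cells, and its ligands PD-L1 (Cd274) and PD-L2 (Pdcd1lg2) are carried by tumor and myeloid cells. Antibodies that block PD-1 release T cells from this brake, and the interferon gamma that T and NK cells then secrete acts through JAK kinases. Its signal reaches GAS elements in promoters and switches on IRF1, guanylate-binding proteins, immunity-related GTPases, the chemokines CXCL9 and CXCL10, the antigen presentation genes and PD-L1 itself. Type I interferons act mainly through ISRE elements. Inducible nitric oxide synthase (Nos2) is a further target of interferon gamma. B16 melanoma is known as a tumor with few infiltrating lymphocytes and low basal MHC class I.

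Libraries held 29545914 to 42196620 counts, and a count of 3, taken as the floor, corresponded to 0.0727 to 0.0974 CPM, which is counts per 1000000 counts of the library. CPM values were scaled with TMM factors and not to gene length, so they compare tumors and not genes. The labelled tissue was checked against its markers. Melanocyte lineage genes, which the B16 line keeps, were abundant in all 6 tumors, with Dct, a melanin synthesis enzyme, between 3851 and 4765 CPM. Pan-leukocyte genes were present in each tumor, with Ptprc (CD45) between 60.9 and 205 CPM. T cells were sparse: Cd3e ran from 0.292 to 25.6 CPM, and Cd8a, the coreceptor of cytotoxic T cells, was at 0 in anti-PD-1 replicate 5. The share of counts on genes encoded by mitochondrial DNA was 4.20% to 8.07%, and the share estimated as background from sensory receptor genes, which tumors should not express, was 0.109% to 0.761%.

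Of the 6 tumors 3 stood apart in the interferon gamma, muscle or skin lists, and anti-PD-1 replicate 2 stood apart in other ways. List medians that single tumors moved are given below also without such a tumor. IgG replicate 4 had the highest level of the 6 in 26 of the 27 interferon gamma response genes that were tested, whereas it was highest for 15.6% of all 15420 genes with a mean of at least 1 CPM. It was also the highest of all 30 tumors of the experiment for 24 of these 27 genes, against 5.58% of all genes of that level. IgG replicate 6 and anti-PD-1 replicate 4 held skeletal muscle RNA. The summed level of 13 muscle genes, such as the myosin Myh1 and the actin Acta1, was 20764 CPM in IgG replicate 6 and 3262 CPM in anti-PD-1 replicate 4, against 17.2 to 34.1 CPM in the other 4 tumors. Keratinocyte and hair genes, markers of overlying skin, summed to 982 CPM in IgG replicate 6 and to 6.57 to 36.8 CPM in the other 5. Anti-PD-1 replicate 2 had the fewest counts of the 6 and the largest share estimated as background, 0.761%. It was the highest of all 30 tumors for 8.86% of all genes tested. It was also the lowest of the 6 for 22 of the 27 interferon gamma response genes.

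The sequences below are shown because the genes that follow had their highest level in the same tumor and are textbook targets of interferon gamma. They are stretches of 100 bases just before the RefSeq start of 5 such genes, on build GRCm38.p6, written 5′ to 3′ along the gene's strand. Capitals mark matches to GAS, TTCNNNGAA, or to an ISRE-like motif, GAAANNGAAA, read on both strands.
Irf1, chr11:53769904-53770003, plus strand: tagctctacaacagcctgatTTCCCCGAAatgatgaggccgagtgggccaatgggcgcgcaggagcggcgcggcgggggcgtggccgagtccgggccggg
Gbp2, chr3:142620553-142620652, plus strand: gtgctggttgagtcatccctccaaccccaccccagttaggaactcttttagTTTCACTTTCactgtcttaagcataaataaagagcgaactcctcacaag
Igtp, chr11:58199446-58199545, plus strand: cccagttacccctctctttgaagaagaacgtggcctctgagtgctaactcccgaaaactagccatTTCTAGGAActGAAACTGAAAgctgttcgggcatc
Irgm2, chr11:58214867-58214966, plus strand: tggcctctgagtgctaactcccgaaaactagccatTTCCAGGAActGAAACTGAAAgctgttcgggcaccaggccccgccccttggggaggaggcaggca
Tgtp1, chr11:48992257-48992356, minus strand: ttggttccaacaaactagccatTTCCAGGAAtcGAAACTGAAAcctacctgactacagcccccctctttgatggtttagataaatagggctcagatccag

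In these stretches Irf1 held a GAS match alone, Gbp2 an ISRE-like match on the other strand alone, and Igtp, Irgm2 and Tgtp1, all immunity-related GTPases, held both, the GAS match starting 11 bases before the ISRE-like one. In RefSeq windows of 300 bases, from 250 before to 50 after the start, 15 of the 28 listed interferon gamma response genes had an entry. Of these 15, 8 held a GAS match, 10 an ISRE-like match and 6 both. The corresponding shares of all 32851 windows were 8.30%, 3.44% and 0.454%. Of 36 listed type I interferon-stimulated genes, 27 had an entry, with 6 holding a GAS match, 14 an ISRE-like match and 3 both. A match is a run of letters and does not show binding. The immunity-related GTPases and guanylate-binding proteins are close paralogs, so the split of reads among Tgtp1, Igtp, Irgm2 and their neighbours is uncertain. All 6 genes with both matches belong to these families. The printed Igtp and Irgm2 stretches are nearly the same around the matches, so these promoters are not independent examples.

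The first question was which genes separated the anti-PD-1 from the IgG tumors of day 1. No gene passed the threshold. In the edgeR quasi-likelihood fit of all 30 tumors of the experiment, 0 of 26848 genes (0%) had a Benjamini-Hochberg adjusted p under 0.05, and the smallest unadjusted edgeR p was 4.89e-05. At an unadjusted p under 0.05, 296 genes (1.1%) were higher in the anti-PD-1 tumors and 680 (2.53%) were lower. In counts simulated without any change between groups, 1520 genes in both directions had an unadjusted edgeR p under 0.05. By DESeq2, 2 genes were lower at an adjusted p under 0.05. Its unadjusted p was under 0.05 for 304 higher and 711 lower genes, of 49215 that it tested. The 2 genes, looked up after the result was seen, were the amino acid transporter Slc38a5, with 13, 0 and 57 counts in the IgG tumors, and A030014E15Rik, with 0, 8 and 2 counts. Both were at 0 counts in all 3 anti-PD-1 tumors.

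Without regard to p, every anti-PD-1 tumor lay over every IgG tumor for 743 genes (2.77%) and under every IgG tumor for 1000 genes (3.72%). In groups this small some genes separate by chance alone, and these counts were not tested. Over all genes tested the median log2 fold change was -0.01, with quartiles of -0.52 and 0.23. For the 15420 genes with a mean of at least 1 CPM the median size of the change was 0.177 on the log2 scale, and the median standard error (SE) was 0.282. The typical change was thus smaller than the typical error. Of the 680 genes lower at an unadjusted p under 0.05, 491 had a mean under 1 CPM.

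Interferon gamma response genes had lower fitted levels in the anti-PD-1 tumors for all 27 members tested, with a median log2 fold change of -1.61. None passed the adjusted threshold, 5 of 27 had an unadjusted p under 0.05 (2.53% of all genes in that direction) and 0 of 27 separated the groups without overlap. The list score, the mean of log2(CPM + 0.5) over members, was 3.05, 4.96 and 4.15 in anti-PD-1 replicates 2, 4 and 5. It was 4.15, 7.22 and 3.82 in IgG replicates 2, 4 and 6, and 3.84, 3.94 and 2.89 in the untreated tumors. The IgG group therefore held 1 tumor far above the other 8 of that day, and its other 2 tumors lay inside the anti-PD-1 range. Mean scores were 4.06 ± 0.96 (SD, n = 3) and 5.07 ± 1.88 (SD, n = 3). Without IgG replicate 4, the median log2 fold change was 0.30, with 20 members higher and 7 lower and 0 at an unadjusted p under 0.05. Without anti-PD-1 replicate 2 it was -1.26, with all 27 lower and 0 at an unadjusted p under 0.05.

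**Figure D1:**
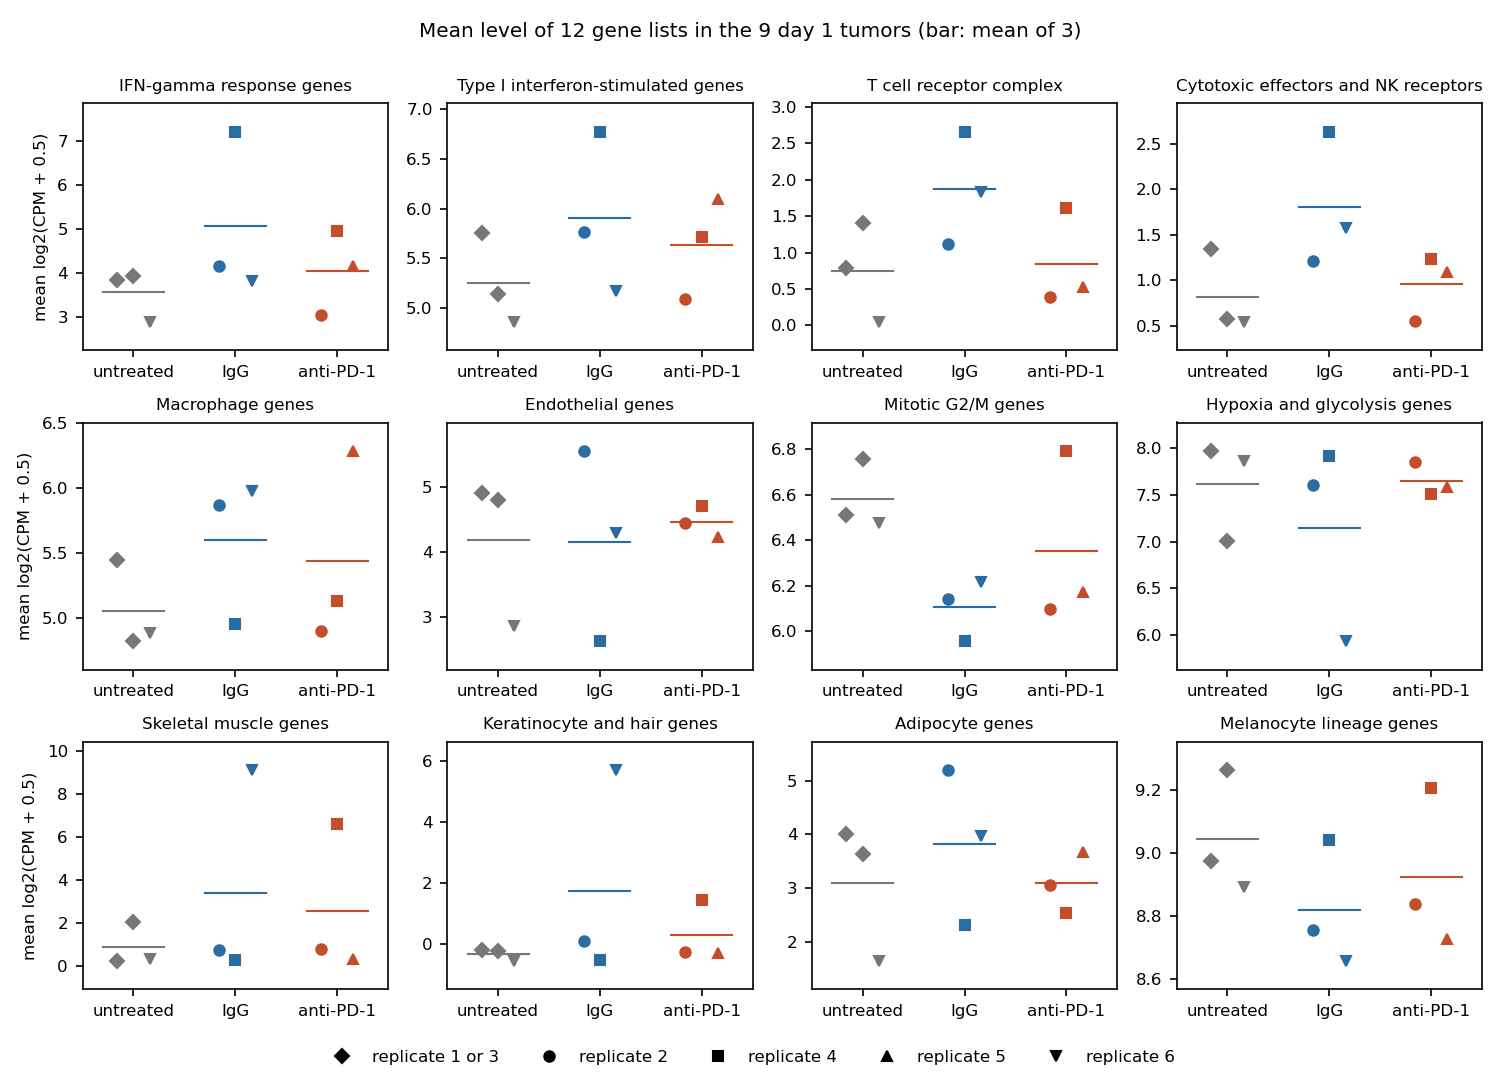
Scores of gene lists in the tumors of day 1: each point is 1 tumor, the axis is the mean of log2(CPM + 0.5) over the tested members of the list, and groups are anti-PD-1, IgG and untreated (n = 3 each). IgG replicate 4 reached 7.22 for the interferon gamma response genes, and IgG replicate 6 reached 9.11 for the skeletal muscle genes.

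Irf1 (ENSMUSG00000018899.16, GRCm38 chr11:53770014-53778374), the transcription factor at the head of the interferon gamma response, measured 24.3, 69.7 and 41.4 CPM in anti-PD-1 replicates 2, 4 and 5 and 39.1, 374 and 33.5 CPM in IgG replicates 2, 4 and 6. The groups overlapped, and the single high value was that of IgG replicate 4. The log2 fold change of Irf1 was -1.72 (SE 0.81, edgeR adjusted p = 1), and 0.32 without that tumor. Gbp2, a guanylate-binding protein that acts against intracellular pathogens, measured 15.4, 104 and 35.2 CPM against 33.7, 709 and 25.2 CPM, a log2 fold change of -2.31 (SE 1.21, edgeR adjusted p = 1).

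IgG replicate 4 was also the highest tumor for the immunity-related GTPases whose promoters are printed above. Igtp was at 11.01, 108 and 23.99 CPM in anti-PD-1 tumors and at 24.6, 534 and 27.7 CPM in the IgG tumors. Tgtp1 was at 2.27, 34.7 and 6.46 CPM against 5.14, 308 and 4.01 CPM. Irgm2 was at 45.01, 134 and 65.4 CPM against 66.0, 478 and 69.2 CPM. In all 3 genes anti-PD-1 replicate 4 was the next highest tumor after IgG replicate 4, and the remaining 4 tumors lay under both.

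**Figure D2:**
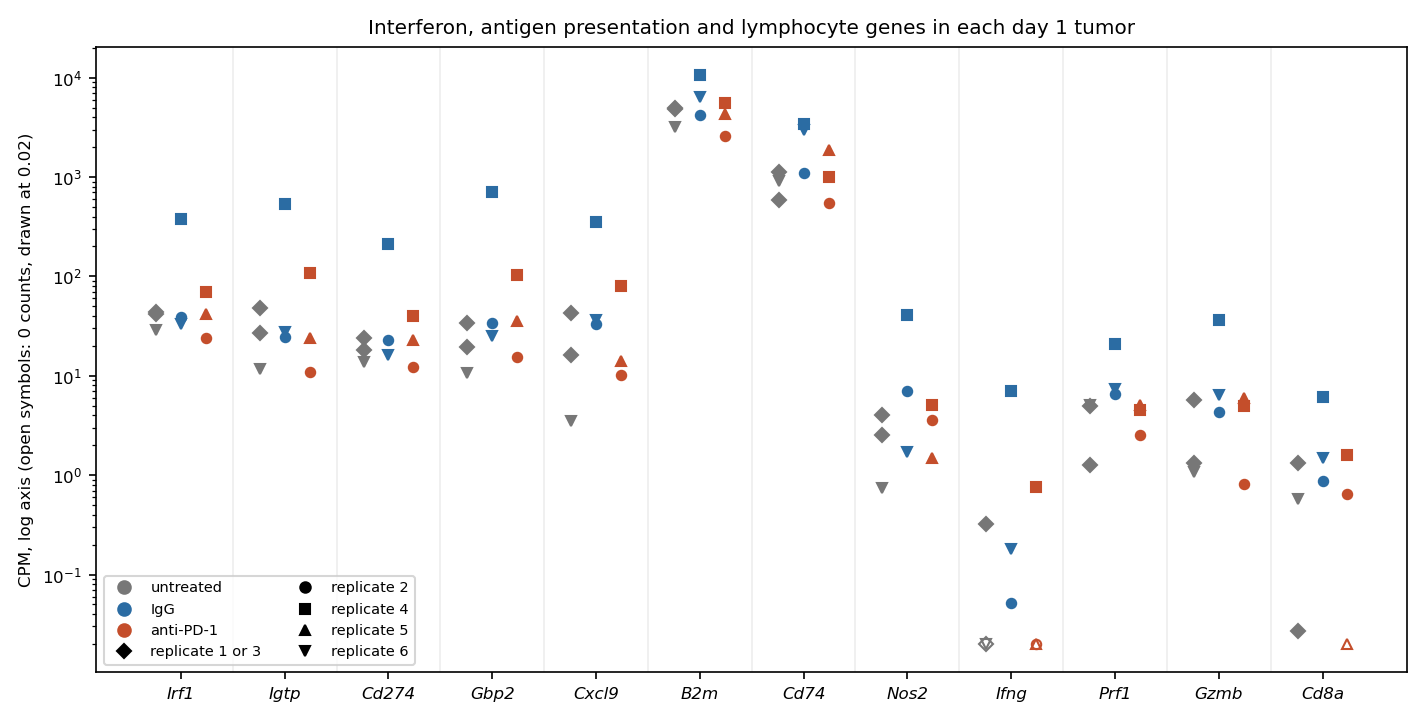
CPM of single interferon, antigen presentation and lymphocyte genes in the 9 tumors of day 1, on a log axis, 1 point per tumor and 1 colour per group, with tumors at 0 drawn as open symbols at the foot. For Irf1, IgG replicate 4 lies at 374 CPM and the 3 anti-PD-1 tumors lie between 24.3 and 69.7 CPM.

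Among the ligands, Ifng (ENSMUSG00000055170.4, chr10:118441046-118445892), the cytokine itself, was at 0, 0.762 and 0 CPM in anti-PD-1 tumors and 0.0514, 6.95 and 0.180 CPM in the IgG tumors. IgG replicate 4 was far above the rest, and anti-PD-1 replicate 4 and IgG replicate 6 were the only other tumors of the 6 over the floor. Ifnb1, the beta interferon gene, was too low to be tested and had counts in anti-PD-1 replicate 5 alone, at 0.175 CPM. Among interferon receptors, JAKs and STATs, 3 of 11 members were higher and 8 lower, with a median of -0.29, which was -0.04 without IgG replicate 4 and also without anti-PD-1 replicate 2. Ifnar1, a chain of the type I receptor, measured 70.5, 78.7 and 69.5 CPM in anti-PD-1 tumors against 64.7, 59.9 and 61.1 CPM in the IgG tumors and did not overlap between them, but untreated tumors spanned 53.7 to 75.6 CPM.

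Type I interferon-stimulated genes showed a smaller difference of the same sign. Of 36 members 2 were higher and 34 lower in the anti-PD-1 tumors, with a median log2 fold change of -0.35 and 0 at an unadjusted p under 0.05. Scores were 5.09, 5.71 and 6.10 against 5.76, 6.77 and 5.18, so the groups overlapped. IgG replicate 4 was the highest of the 6 tumors for 31 of 36 members, and without it the median was 0.17, with 31 members higher and 5 lower. Irf3, a constitutive sensor-pathway factor, lay between 31.7 and 36.8 CPM in all 6 tumors, with a log2 fold change of 0.03 (SE 0.17, edgeR adjusted p = 1). Irf7, the inducible amplifier of type I interferon, measured 44.7, 66.7 and 224 CPM against 133, 140.9 and 65.2 CPM. Its groups overlapped fully, with a log2 fold change of -0.01 (SE 0.61, edgeR adjusted p = 1).

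Cxcl9 and Cxcl10, chemokines that draw CXCR3-bearing T cells, were also highest in IgG replicate 4. So was Cxcl11, at 10.7 CPM, which the gene models list as a polymorphic pseudogene. All 4 members of the CXCR3 axis were lower, with a median of -1.09, and the median was 0.02 without IgG replicate 4. Cxcl9 measured 10.1, 80.0 and 13.997 CPM in anti-PD-1 tumors and 32.9, 352 and 36.1 CPM in the IgG tumors, a log2 fold change of -2.02 (SE 1.204, edgeR adjusted p = 1). The value for anti-PD-1 replicate 4 lay over 2 of the 3 IgG tumors. Of 14 CC chemokines tested, 4 were higher and 10 lower, with a median of -0.54, which was -0.11 without IgG replicate 4. Ccl4, a T cell and macrophage attractant, was the 1 member of 14 without overlap, beside 3.72% of all genes in that direction. It was at 0.357, 0.369 and 0.676 CPM against 1.18, 3.22 and 1.18 CPM. Ccl5 was at 7.53, 19.6 and 14.3 CPM against 19.1, 55.3 and 22.8 CPM.

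Antigen presentation genes were lower in the anti-PD-1 tumors throughout both lists, again without a gene past the adjusted threshold. All 16 MHC class I and peptide loading genes were lower, with a median of -0.72. IgG replicate 4 was the highest tumor for all 16, and without it the median was 0.11, with 9 higher and 7 lower. B2m, the light chain of class I, measured 2590 CPM in anti-PD-1 replicate 2, 5566 in replicate 4 and 4290.2 in replicate 5, against 4217, 10527 and 6355 CPM in IgG replicates 2, 4 and 6. Its groups overlapped, with a log2 fold change of -0.76 (SE 0.34, edgeR adjusted p = 1). All 8 MHC class II genes were lower, with a median of -0.88, and here the sign held for all 8 without IgG replicate 4, with a median of -0.52 and 0 at an unadjusted p under 0.05. Without anti-PD-1 replicate 5 it was -1.39. Cd74, the invariant chain of class II, measured 551, 990.0 and 1876 CPM against 1105, 3387 and 2949 CPM. Anti-PD-1 replicate 5 lay over IgG replicate 2, so these groups overlapped as well.

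The target of the antibody and its ligands were measured next. Pdcd1 (chr1:94038305-94052553), which encodes PD-1, was near 1 CPM or less in 5 of the 6 tumors, at 0.390, 1.01 and 0.576 CPM in the anti-PD-1 group and 0.231, 4.31 and 1.11 CPM in the IgG group. Its log2 fold change was -1.51 (SE 1.08, edgeR adjusted p = 1). An antibody that blocks the protein need not alter this RNA, so the gene gives no check of the treatment. Cd274 (ENSMUSG00000016496.7, chr19:29367455-29388095) measured 12.3, 40.4 and 22.8 CPM against 22.9, 211 and 16.01 CPM, and 24.1, 18.2 and 13.7 CPM in untreated ones. The log2 fold change of -1.73 (SE 0.77, edgeR adjusted p = 1) was 0.37 without IgG replicate 4. Pdcd1lg2 measured 2.11, 3.10 and 0.977 CPM against 2.08, 16.5 and 2.80 CPM, a log2 fold change of -1.79 (SE 0.71, edgeR adjusted p = 1). Over the list of PD-1 and other checkpoints, 2 of 14 members were higher and 12 lower, with a median of -0.69 that was -0.08 without IgG replicate 4.

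T cell and cytotoxic genes were lower in the anti-PD-1 tumors, and part of the difference was left without IgG replicate 4. In bulk tumors, fewer cells of a type and less RNA per cell cannot be told apart. All 13 genes of the T cell receptor complex were lower in the anti-PD-1 tumors, with a median of -1.12 and 0 at an unadjusted p under 0.05. Without IgG replicate 4 the median was -0.65, with 2 higher and 11 lower, and without anti-PD-1 replicate 4 it was -2.17. Scores were 0.39, 1.61 and 0.53 against 1.12, 2.66 and 1.84, so anti-PD-1 replicate 4 lay over IgG replicate 2. Cd3e, a signalling chain of the receptor, measured 0.292, 11.6 and 0.551 CPM against 4.01, 25.6 and 13.1 CPM. Cd4, the helper coreceptor, did not overlap, at 1.14, 3.81 and 2.55 CPM against 4.06, 6.74 and 7.45 CPM, and its 3 untreated values of 2.64, 3.73 and 0.157 CPM lay under the IgG tumors too. Cd8a measured 0.649, 1.60 and 0 CPM against 0.874, 6.18 and 1.49 CPM, with a log2 fold change of -1.92 (SE 1.23, edgeR adjusted p = 1). Tumors of a group differed widely in Cd8a, with a mean of 2.85 and an SD of 2.90 CPM (n = 3) in the IgG group. With this spread, a difference in Cd8a of the fitted size did not pass the threshold.

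All 17 cytotoxic effectors and NK receptors were lower, with a median of -1.11, or -1.03 with the member at 0 in all anti-PD-1 tumors set to the floor. Of these, 3 did not overlap between the groups, namely Prf1, Nkg7 and Klrd1, beside 3.72% of all genes in that direction. Prf1, the pore-forming perforin, measured 2.53, 4.55 and 5.13 CPM in anti-PD-1 tumors and 6.51, 21.1 and 7.40 CPM in the IgG tumors. The untreated tumors, at 4.93, 1.28 and 5.11 CPM, lay with the anti-PD-1 tumors. For Prf1 the log2 fold change was -1.52 (SE 0.74, edgeR adjusted p = 1). Klrd1 (CD94), an NK receptor chain, measured 0.812, 1.302 and 1.78 CPM against 3.68, 5.33 and 2.00 CPM. Gzmb, the granule protease granzyme B, measured 0.812, 5.01 and 5.91 CPM against 4.32, 36.8 and 6.42 CPM, with overlap. Without IgG replicate 4 the list median was -0.68, with 2 higher and 14 lower. Mean scores were 0.96 ± 0.36 (SD, n = 3) for anti-PD-1, 1.81 ± 0.74 (SD, n = 3) for IgG and 0.82 ± 0.45 (SD, n = 3) for untreated tumors. The 5 regulatory T cell genes were all lower, with a median of -0.92, which became -0.45 once IgG replicate 4 was left out (1 higher, 4 lower) and -0.37 without anti-PD-1 replicate 2. Il2ra, the high-affinity interleukin 2 receptor chain, measured 1.202, 5.90 and 3.03 CPM against 3.70, 23.7 and 5.53 CPM, a log2 fold change of -1.70 (SE 0.67, edgeR adjusted p = 1), and the groups overlapped.

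**Figure D3:**
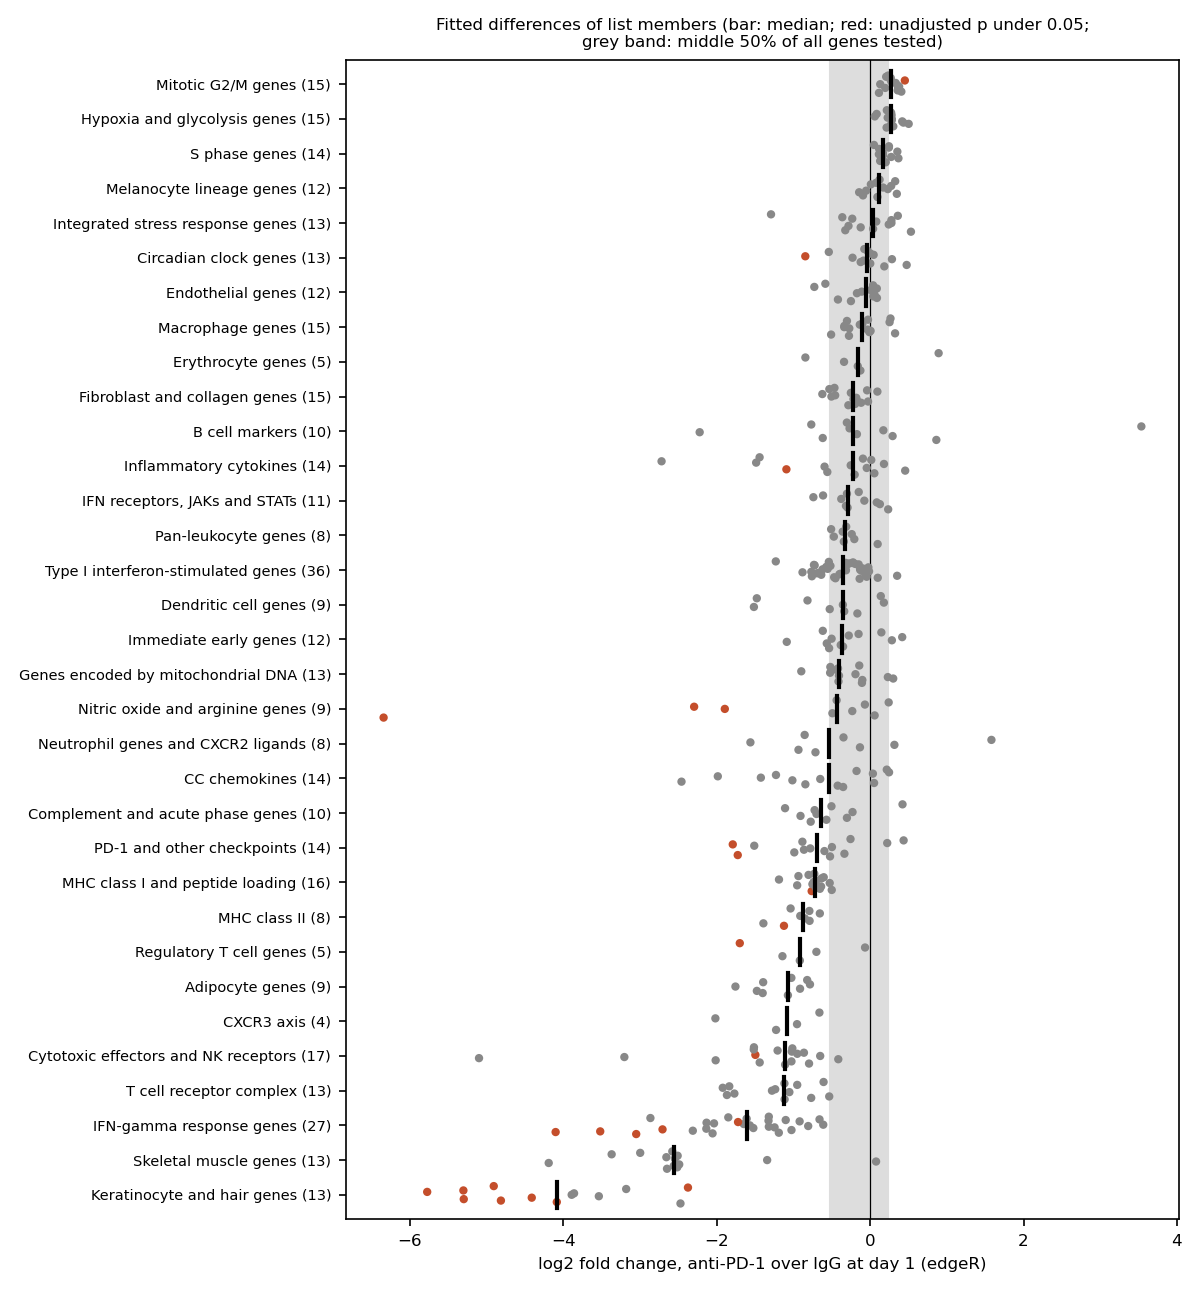
Log2 fold change of anti-PD-1 against IgG at day 1 for each tested member of the gene lists (1 point per gene) with the list median as a bar, from the edgeR fit of 30 tumors. The median was -1.61 for interferon gamma response genes, -1.11 for cytotoxic effectors and 0.28 for mitotic genes, and no point had an adjusted p under 0.05.

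Macrophage, dendritic cell, melanocyte and endothelial lists had medians nearer to 0 than the T cell and cytotoxic lists. Macrophage genes had 4 members higher and 11 lower of 15, with a median of -0.10. The sign of this median turned with single tumors: it was 0.10 without IgG replicate 6, 0.18 and 0.08 without anti-PD-1 replicates 2 and 4, and -0.70 without anti-PD-1 replicate 5. Their score was highest of all 30 tumors in anti-PD-1 replicate 5, at 6.28, and the 2 other anti-PD-1 tumors were at 4.90 and 5.13, so the treated tumors differed among themselves by more than the groups did. Lyz2, lysozyme of macrophages and neutrophils, showed this as 95.5, 104 and 412 CPM against 215, 170 and 288 CPM. Of 9 dendritic cell genes 2 were higher and 7 lower, with a median of -0.35, which was -0.13 without IgG replicate 4 and -0.71 without anti-PD-1 replicate 5. Clec9a, a marker of cross-presenting dendritic cells, was at 1.202, 1.08 and 2.00 CPM against 3.21, 7.05 and 2.00 CPM, and its groups touched without overlap, since the closest values round to the same number. Melanocyte lineage genes had a median of 0.11, with 9 higher and 3 lower of 12, and of -0.07, with 5 higher and 7 lower, without anti-PD-1 replicate 4. Endothelial genes were split 6 and 6, with a median of -0.05, while their score spanned 2.64 in IgG replicate 4 to 5.54 in IgG replicate 2. Without IgG replicate 2 the endothelial median was 0.92, with 10 higher and 2 lower, and without IgG replicate 4 it was -0.51, with all 12 lower.

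The nitric oxide genes were read separately because nitric oxide is the subject of the study. Nos2 (ENSMUSG00000020826.8, chr11:78920787-78960254) measured 3.57, 5.09 and 1.48 CPM in anti-PD-1 tumors, 7.05, 40.97 and 1.72 CPM in the IgG tumors and 2.53, 4.07 and 0.734 CPM in untreated ones. The groups overlapped, and the highest value was again that of IgG replicate 4. Its log2 fold change was -2.29 (SE 0.88, edgeR adjusted p = 1), and it was -0.38 without that tumor. Nos1, the neuronal and muscle synthase, measured 4.06, 10.6 and 2.33 CPM against 4.63, 4.07 and 54.6 CPM. Its highest values were in the 2 tumors with muscle RNA, whose part in the result was not tested. The log2 fold change of -1.89 (SE 0.73, edgeR adjusted p = 1) was 0.38 without IgG replicate 6. Arg2 was under 0.5 CPM in all 6 tumors. Over the 9 genes of the list, 2 were higher and 7 lower, with a median of -0.44, also with Arg2, at 0 in all anti-PD-1 tumors, set to the floor. The list median was -0.21 without IgG replicate 6 and -0.18 without anti-PD-1 replicate 2.

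Every member of the proliferation and hypoxia lists had a higher fitted level in the anti-PD-1 tumors, by small amounts. All 15 mitotic G2/M genes were higher, with a median of 0.28, and all 14 S phase genes were higher, with a median of 0.17. G2/M scores were 6.10, 6.79 and 6.17 against 6.14, 5.96 and 6.22, with untreated tumors at 6.51, 6.75 and 6.47. Anti-PD-1 replicate 4 was the highest of the 6 for 14 of 15 genes, and without it the medians were -0.01 for G2/M and 0.01 for S phase. Mki67, the proliferation antigen, measured 919, 1589 and 936 CPM against 1003, 703 and 1164 CPM, with a log2 fold change of 0.26 (SE 0.26, edgeR adjusted p = 1). Kif20a, a mitotic kinesin, did not overlap, at 72.1, 89.5 and 60.7 CPM against 53.3, 52.1 and 57.1 CPM, a log2 fold change of 0.45 (SE 0.21, edgeR adjusted p = 1). Cenpf, a kinetochore protein, did not overlap either, at 178, 262 and 189 CPM against 174, 157 and 168 CPM. All 15 hypoxia and glycolysis genes were higher, with a median of 0.27. IgG replicate 6, which held both muscle and skin RNA, was the lowest of the 6 for all 15 and had the lowest score of the 30 tumors, 5.93. Without it the median was -0.10. Slc2a1, the glucose transporter GLUT1, measured 175, 163 and 175 CPM against 159, 230 and 40.2 CPM.

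Keratinocyte and muscle genes had the medians farthest from 0 of all lists, -4.08 and -2.56. All 13 keratinocyte genes were lower, 8 of them at an unadjusted p under 0.05 against 2.53% of all genes in that direction, and IgG replicate 6 was the highest tumor for all 13. Krt10, a keratin of differentiated epidermis, measured 0.585, 4.89 and 1.75 CPM against 1.47, 0.242 and 286 CPM. Myh1 measured 0.844, 177 and 0.551 CPM against 0.771, 0.170 and 3248 CPM. These differences belonged to single tumors: without IgG replicate 6 the medians were 1.58 and 5.78, and without both tumors with muscle RNA the muscle median was -0.03. All 9 adipocyte genes were lower, with a median of -1.07, and IgG replicate 2 was the highest tumor for all 9. Without it the median was -0.32, with 1 higher and 8 lower. Adipoq, the fat cell hormone adiponectin, measured 5.78, 3.78 and 7.34 CPM against 24.1, 2.16 and 9.23 CPM.

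Single genes without overlap were named by the lowest unadjusted p among protein-coding genes with a mean of at least 1 CPM, as a description. Of the 10 higher genes, Pgrmc2, a heme-binding membrane protein, measured 65.1, 64.3 and 65.7 CPM in anti-PD-1 tumors and 53.6, 51.5 and 46.8 CPM in the IgG tumors. The log2 fold change was 0.36 (SE 0.12, edgeR adjusted p = 1), but untreated tumors, at 64.4, 58.7 and 69.3 CPM, lay around the anti-PD-1 values. Pacsin2, a membrane-bending endocytic protein, measured 133, 124 and 126 CPM against 98.8, 106 and 102 CPM, and all 3 untreated tumors, at 115, 108 and 114 CPM, lay between the groups. Etfrf1, a regulator of electron transfer flavoprotein, measured 13.997, 13.1 and 13.9 CPM against 9.51, 8.89 and 7.74 CPM, a log2 fold change of 0.65 (SE 0.20, edgeR adjusted p = 1), and its anti-PD-1 tumors also lay over the untreated ones at 8.81, 10.5 and 12.2 CPM. Rps2 and Eef1b2, a ribosomal protein and an elongation factor, had log2 fold changes of 0.71 and 0.38, but both have many near-identical copies in the genome and their counts are uncertain. The remaining 5, Pgp, Vmac, Mrpl9, Rasef and Ilkap, had log2 fold changes of 0.43 to 0.84. Rps2 and Pgp were highest in anti-PD-1 replicate 2, at 429 and 99.1 CPM. In the other anti-PD-1 tumors they were at most at 237 and 55.2 CPM.

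Of the 10 lower genes, Pnpla2, the triglyceride lipase of fat stores, measured 56.9, 85.5 and 81.5 CPM in anti-PD-1 tumors and 133, 129 and 105 CPM in the IgG tumors. The log2 fold change was -0.71 (SE 0.27, edgeR adjusted p = 1), and the untreated tumors, at 99.7, 90.1 and 59.2 CPM, overlapped the anti-PD-1 group. Pla2g16, a phospholipase, measured 8.77, 18.2 and 12.4 CPM against 19.6, 55.2 and 18.3 CPM, so that the closest pair of tumors differed by little. Grid2ip measured 2.01, 2.53 and 3.21 CPM against 5.40, 4.02 and 5.24 CPM, and its anti-PD-1 tumors also lay under the untreated ones at 3.48, 6.09 and 4.14 CPM. Zfp961, a zinc finger gene, was the other lower gene that did so, at 8.90, 11.1 and 9.89 CPM against 14.4, 12.5 and 16.8 CPM in the IgG and 11.6, 15.1 and 14.5 CPM in the untreated tumors. Reep1, Myoc and Serpina12 had log2 fold changes of -3.59, -4.37 and -6.21 and their highest value in IgG replicate 6, at 4.83, 12.6 and 5.71 CPM. For Serpina12, 2 of the 3 anti-PD-1 tumors were at 0. The remaining 3, Mlxip, Dlec1 and Gsap, had log2 fold changes of -0.49, -1.27 and -1.39.

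**Figure D4:**
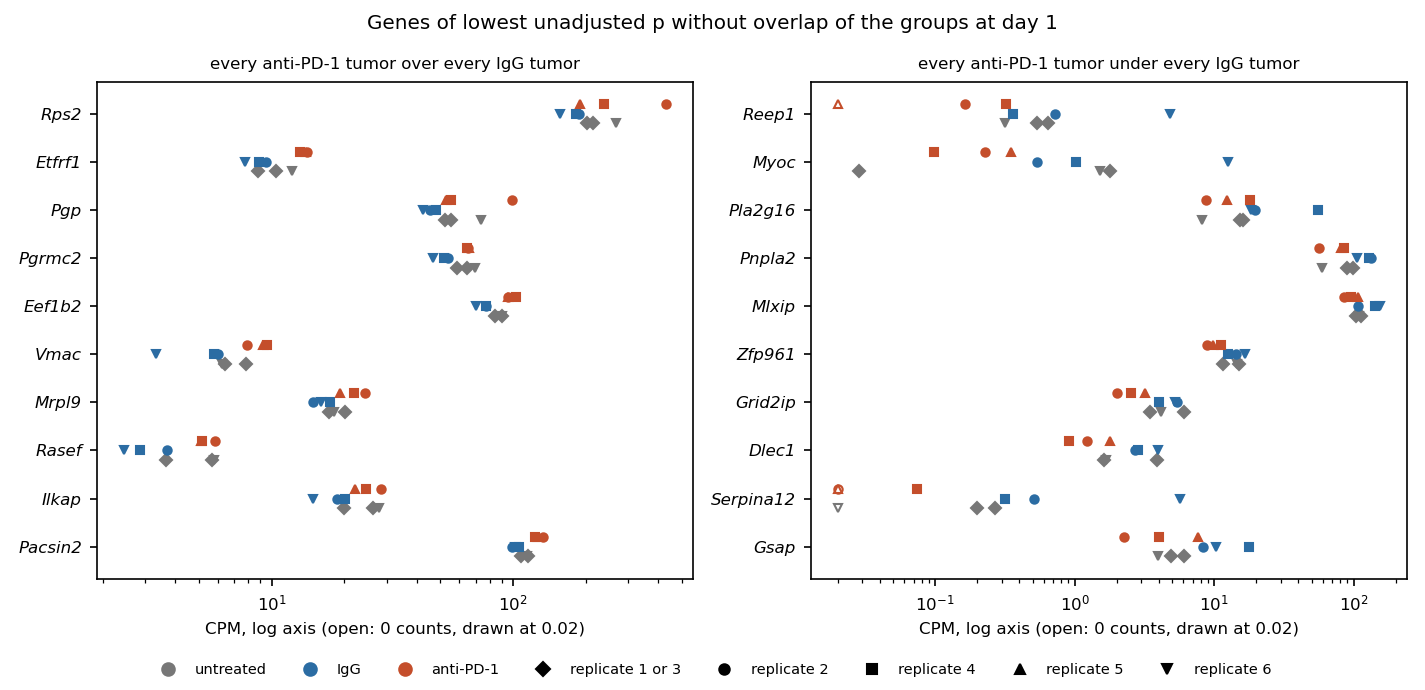
CPM of the 20 named genes whose anti-PD-1 and IgG tumors do not overlap at day 1, on a log axis, with the untreated tumors beside them (1 point per tumor, n = 3 per group). Pacsin2 lies at 124 to 133 CPM in the anti-PD-1 and 98.8 to 106 CPM in the IgG tumors, with the untreated tumors between.

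The next question was whether the anti-PD-1 tumors differed from untreated tumors of the same day. Again 0 of 26848 genes (0%) passed the threshold by edgeR, with an unadjusted p under 0.05 for 349 higher and 360 lower genes, while DESeq2 called 7 higher and 4 lower. Each gene called by DESeq2 was at 0 counts in every anti-PD-1 or every untreated tumor. Tchhl1, for example, had 36, 0 and 18 counts in anti-PD-1 tumors and 0 in all untreated ones. The comparison shares its anti-PD-1 tumors with the one above. For the interferon gamma response genes the median was 0.72 against untreated tumors, with 0 of 27 at an unadjusted p under 0.05, where it was -1.61 against IgG. Without anti-PD-1 replicate 4 the first of these was -0.0049. In the IgG against the untreated tumors the fitted median of this list was 2.46. The scores above show that this, too, held IgG replicate 4 at 7.22, while IgG replicate 6, at 3.82, lay under 2 of the 3 untreated tumors. Cytotoxic genes had a median of 0.14 in anti-PD-1 against untreated tumors. Mitotic genes had a median of -0.19 in that comparison.

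The last question was whether the contrast of anti-PD-1 with IgG at day 1 differed from that at 6 hours and at day 3, which used other tumors. No gene passed the threshold in either test of the difference by edgeR (0 of 26848, 0%, in each). At an unadjusted p under 0.05, 657 genes had a higher and 499 a lower contrast at day 1 than at 6 hours, and 391 had a higher and 347 a lower contrast at day 3 than at day 1. DESeq2 called 0 genes for the first difference and 13 for the second, 8 higher and 5 lower. Each of the 13 was at 0 counts in some tumor of day 1. All but Gm47969 had their highest count of that day in IgG replicate 6, such as Kprp at 2721. Interferon gamma response genes had a median contrast of 1.01 at 6 hours, -1.61 at day 1 and 0.98 at day 3. The median difference was -2.68 between day 1 and 6 hours and 2.72 between day 3 and day 1, with 11 of 27 members at an unadjusted p under 0.05 in each. Without IgG replicate 4 of day 1 these medians were -0.66 and 0.42, with 0 of 27 in each. The contrasts at the other times held tumors that stood apart too: scores over 5 were found in anti-PD-1 replicates 1 and 5 (5.16 and 6.48) and IgG replicate 1 (5.61) at 6 hours, and in anti-PD-1 replicate 3 (6.23) and IgG replicate 3 (5.32) at day 3. No untreated tumor passed 5. For cytotoxic genes the median contrast was 0.60 at 6 hours, -1.11 at day 1 and -0.55 at day 3.

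**Figure D5:**
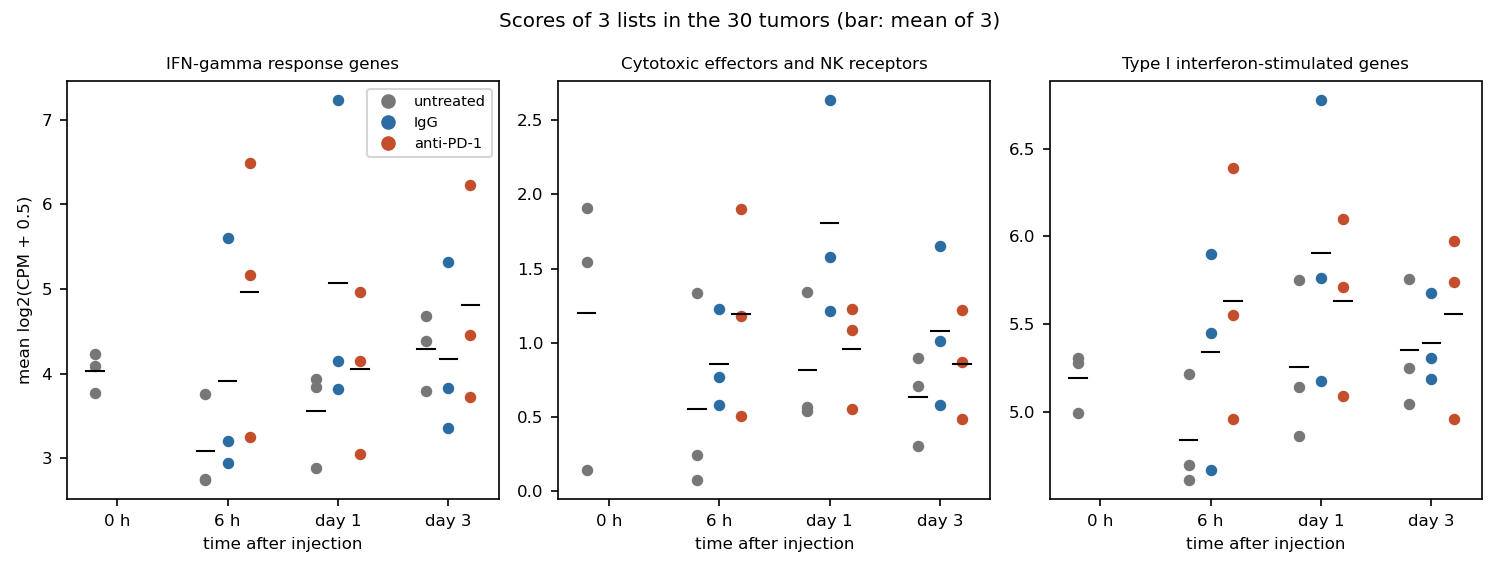
Scores of gene lists, as the mean of log2(CPM + 0.5) over members, in the 30 tumors of the experiment by time and treatment, 1 point per tumor and 3 tumors per group. For interferon gamma response genes, 6 tumors lie over 5 and the highest, at 7.22, is IgG replicate 4 of day 1.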

How the data were processed

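The authors trimmed reads with cutadapt 1.8.1, aligned them with STAR 2.7.7a to mm10 and quantified genes with RSEM 1.3.0 on GENCODE vM21, per the labels and the study's methods, from a strand-specific total RNA kit. The deposited values are whole-number counts per gene for 55450 genes in 48 libraries, but the table is titled after a counting program other than RSEM, so which program wrote the final counts is not settled. All 30 libraries of EXP2128 were fitted together in edgeR 4.0.16 (R 4.3.3) by the quasi-likelihood test, with 1 coefficient per group, TMM scaling and filterByExpr at a minimum count of 10, which left 26848 genes and 20 residual degrees of freedom. The study used DESeq2, which was an alternative here (version 1.42.0), as was limma 3.58.1. Benjamini-Hochberg adjustment ran over all genes tested, with a threshold of 0.05, and the SE is the log2 fold change divided by the square root of F. Adding all groups to the fit gives more residual degrees of freedom than 3 against 3 tumors, but assumes that all groups share the same spread. Tumors of the 2 groups compared differed more among themselves than the untreated tumors of that day. Whether this made the SE and unadjusted p of the day 1 comparison too small was not tested. The script was tested on simulated data with known answers. CPM use TMM-scaled library sizes, and list scores add a pseudocount of 0.5.

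The members and the gene lists were chosen with earlier results of these data known, so lists are described by counts and medians and not tested. Named genes were the genes the study or its treatment names, genes past the threshold, up to 10 per direction by unadjusted p among protein-coding genes without overlap and with a mean of at least 1 CPM, the 3 most abundant members of each list, and the 3 genes of lowest p in each test of a difference between times. Other genes shown were chosen after their values were seen. Counting intervals were not used, and floors of 3 counts cover counting error only. Replicates were compared by chi-square per gene. It was 109 to 274 within the day 1 anti-PD-1 and IgG groups and 61.0 to 78.3 within the untreated group of day 1. No library was thus a second deposit of another. A title prefix given to 2 libraries belonged to different tumors by this measure (248). Promoter windows came from RefSeq on GRCm38.p6. Antisense and overlapping genes were separated as the authors' counting did. A gene that the rule would name is not reported here. Other experiments of the series were not analysed here.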

Additional observations from a re-analysis of the deposited data

Results flagged for a closer look

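For 3 of the named genes every anti-PD-1 tumor lay over every IgG tumor at day 1 and under every IgG tumor at 6 hours, and the rank order of the groups thus turned between the times. These genes had been named for groups that did not overlap at day 1 or for a low p of the difference between times, and genes that turned in this way were not counted over all genes. The day 1 difference in mean log2(CPM + 0.5), anti-PD-1 minus IgG, was 0.38 for Eef1b2, 0.32 for Pacsin2 and 0.58 for Zfp930. The edgeR test of the difference between the times gave a log2 difference of 0.58, 0.43 and 1.74 respectively, each with an adjusted p of 0.9999. Eef1b2 has near-identical copies, so its counts are uncertain.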

How the results depend on the processing

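The count of 0 genes past the threshold at day 1 held under all edgeR and limma alternatives, including each tumor left out in turn (0 to 0). The number at an unadjusted p under 0.05 was lowest with only the 2 groups in the fit, at 67 higher and 193 lower of 20001 genes. It reached 460 higher of 26848 without anti-PD-1 replicate 5 and 1213 lower of 49294 without the filter. These counts come from different numbers of genes tested and are not like for like. DESeq2 gave 2 genes for anti-PD-1 against IgG, 11 against untreated tumors and 13 for day 3 against day 1, and leaving out the filter gave 2 for day 1 against 6 hours, Krt72 and AI661453, each highest in anti-PD-1 replicate 5 of 6 hours, at 2309 and 2023 counts. The median of the interferon gamma response genes ran from -2.22 to 0.30 as single tumors were left out, and the upper end was that without IgG replicate 4. The replicate numbers did not pair the tumors (correlations of 0.137 and 0.029 for the 2 same-numbered pairs), and with the number as a replicate block 0 genes passed in each comparison and the interferon gamma, type I and cytotoxic medians were -1.83, -0.55 and -1.50. The keratinocyte, muscle and regulatory T cell medians moved with the block from -4.08, -2.56 and -0.92 to -1.32, 0.00081 and -1.75. As the main fit called 0 genes, the block could only have added calls.

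Of 510 list medians 475 stayed within 1 SD of the tumors' scores. That SD includes the tumors that stood apart, and a change of sign within it was not counted as a move. The type I median, for example, turned from -0.35 to 0.17 without IgG replicate 4 and was counted as within. So was the hypoxia median, which turned from 0.27 to -0.10 without IgG replicate 6. Of 719 values for 48 named genes 26 changed sign. As single tumors were left out, the log2 fold change ran from -2.25 to 0.37 for Cd274, -9.45 to 1.13 for Ifng, -2.19 to 0.32 for Irf1, -3.34 to 0.81 for Gbp2 and -3.54 to 0.0086 for Cxcl9, the upper end of each without IgG replicate 4. The low end for Ifng has only tumors at 0 in the anti-PD-1 group, so its size depends on the prior count. It ran from -0.035 to 0.089 for Irf3, -1.02 to 0.36 for Irf7, -2.72 to 0.38 for Nos1, -6.33 to 1.52 for Krt10, -10.6 to 6.98 for Myh1 and -0.19 to 0.78 for Slc2a1. Irf3 was -0.0087 by DESeq2, -0.0085 with DESeq2 size factors and -0.035 with the replicate block. Irf7 was 0.072 with the sensory receptor covariate and 0.0011 with the muscle and skin covariate. Slc2a1 was -0.15 without both tumors with muscle RNA. Krt10 was 0.055, 1.52 and 0.49, and Myh1 1.25, 6.98 and 0.56, with the muscle and skin covariate, without IgG replicate 6 and without both tumors. Mki67 ran from -0.044 to 0.43 as single tumors were left out, with the low end for anti-PD-1 replicate 4. The muscle and skin covariate and the removal of both tumors were chosen after seeing the data. With 3 tumors a group and tumors of a group varying by a common coefficient of 0.671, small changes were not detectable, and scarce genes such as Pdcd1 and Cd8a were measured in few reads. Larger changes could be missed as well. In the simulated data 73 of 200 genes changed 4-fold were called. All 73 were among the 116 changed genes with a mean of at least 1 CPM.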

Other observations

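Immediate early genes, which respond within minutes to tissue handling and growth signals, had 3 members higher and 9 lower of 12 in the anti-PD-1 tumors, with a median log2 fold change of -0.37. Ier2, one of them, went the other way without overlap, at 33.3, 23.5 and 26.7 CPM against 22.7, 20.2 and 19.5 CPM, while untreated tumors measured 25.6, 23.6 and 32.6 CPM. Circadian clock genes, which vary with the hour of collection, had 6 members higher and 7 lower, with a median of -0.04 that ran from -0.10 to 0.04 as single tumors were left out. Nr1d1 (REV-ERB alpha), a core clock repressor, measured 27.5, 48.9 and 61.2 CPM in anti-PD-1 tumors and 59.8, 50.1 and 137 CPM in the IgG tumors, and its groups overlapped. Dbp, a clock output factor, measured 9.48, 10.5 and 10.1 CPM against 9.21, 6.11 and 9.33 CPM, beside untreated values of 3.67, 3.27 and 6.47 CPM.

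Complement and acute phase genes had 1 member higher and 9 lower of 10, with a median of -0.63, which was -0.41 without IgG replicate 6, -0.32 without anti-PD-1 replicate 2 and -1.16 without anti-PD-1 replicate 5. Inflammatory cytokines had 4 higher and 10 lower of 14, with a median of -0.23, which was -0.63 without anti-PD-1 replicate 5. Cxcl16, a chemokine of macrophages and dendritic cells, did not overlap, at 5.59, 10.1 and 9.97 CPM against 11.4, 24.7 and 18.5 CPM. The untreated tumors, at 9.11, 9.78 and 6.03 CPM, lay with the anti-PD-1 tumors. Genes encoded by mitochondrial DNA had 2 higher and 11 lower of 13, with a median of -0.41, and without IgG replicate 6 they were 10 higher and 3 lower, with a median of 0.10. Integrated stress response genes were split 7 and 6, with a median of 0.04, which was 0.26 without IgG replicate 4 and -0.18 without IgG replicate 6. Fibroblast and collagen genes had 1 higher and 14 lower of 15, with a median of -0.22, and without IgG replicate 6 they were 9 higher and 6 lower, while all 15 were lower without IgG replicate 4, with a median of -0.60. B cell markers had a median of -0.22 over 10 genes, which was -0.07 without IgG replicate 6, and 8 of 12 neutrophil genes could be tested, with a median of -0.53, which was 0.03, with 4 higher and 4 lower, without IgG replicate 2.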
